A study of Mus musculus with 6 samples.

Results

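The 36 genes described here encode the machinery that makes cholesterol and fatty acids and the regulators that set its rate. They were followed in CD4+ DC, antigen-presenting cells of the spleen, of WT and Runx3-/- mice. They were taken from a fixed list of gene symbols and fall into 5 regulators, 19 genes of the sterol branch and 12 of the fatty acid branch. For 35 of them the array held at least 1 probe set annotated with that symbol alone, and Acat2 was not analysed here. A gene was counted as measured when its probe set reached a log2 value of 6.5, the background level of the study's methods, in at least 1 of 6 arrays. This left 32 genes, namely 5 regulators, 17 of the sterol branch and 10 of the fatty acid branch, of 9922 genes measured in all. Tm7sf2 (highest value 6.09), Acss2 (6.40) and Me1 (5.43) stayed below background in every array. Just above it lay Fads2, whose highest value was 7.0, Pmvk (7.02) and Scd1 (7.06).

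The groups were 3 WT mice (Runx3 +/+) and 3 Runx3-/- mice, all male, untreated as far as the labels say, and 6 weeks old. The mice came as 3 littermate pairs, so that WT 1 and Runx3-/- 1 were of litter 1, and each array held the RNA of 1 mouse. Runx3, a transcription factor of the Runt family, was disrupted throughout the Runx3-/- mice and not in DC alone. Splenic cells were sorted on CD11c, MHCII, CD4 and CD8. The labels also name an Esam population without saying how it was gated, and the strain background is not given in the sources used here.

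In animal cells, cholesterol is built from acetyl-CoA through mevalonate, isoprenoid units, squalene and lanosterol. Fatty acids are built from the same precursor by acetyl-CoA carboxylase and fatty acid synthase, and are then lengthened by elongases and given double bonds by desaturases. The SREBP transcription factors turn on both branches. SREBP-2, encoded by Srebf2, acts mainly on sterol genes, and SREBP-1, encoded by Srebf1, mainly on fatty acid genes. When sterols are low, the escort protein Scap carries SREBP from the endoplasmic reticulum to the Golgi, where it is cut and released. When sterols are plentiful, the Insig proteins hold Scap back.

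Runx3 RNA itself had log2 values of 11.24, 11.22 and 11.11 in the WT arrays and of 9.16, 9.30 and 9.16 in the Runx3-/- arrays. It fell by 1.98 on the log2 scale to 25.3% of the WT level (limma, adjusted p = 0.0027). Of 15 DC markers, 14 were above background and Dcstamp was not, and the mean of the list was 11.59 to 11.63 in WT and 11.51 to 11.61 in Runx3-/- arrays. That mean covers DC markers that went in both directions. Irf4, a transcription factor of CD4+ DC, fell by 0.62 on the log2 scale (limma, adjusted p = 0.043), and no other DC marker passed. The groups did not overlap for 6 of 14 markers lower and 2 higher in Runx3-/- DC, against 14.9% and 7.48% of all probe sets. The means of markers of other cells also differed between the genotypes. The mean of 16 red pulp macrophage markers, of which Cd163 and Trem2 stayed below background, was 8.37 to 8.77 in WT and 9.38 to 9.65 in Runx3-/- arrays. That of 12 monocyte and neutrophil markers was 7.15 to 7.41 and 7.64 to 7.91, with S100a8, S100a9, Ly6g, Mpo, Elane and Retnlg below background. Of 14 lymphoid and plasmacytoid markers, with Cd3e, Cd3g, Ncr1, Klrb1c and Nkg7 below background, the mean was 6.68 to 6.82 and 6.97 to 7.46. Erythroid and platelet markers stayed near background, at 5.59 to 5.88 and 5.73 to 5.97. Of the 14 measured red pulp macrophage markers, 8 rose at an adjusted p of at most 0.05 (limma), against 0.856% of all probe sets. Adgre1 (change 0.01) and Cd68 (-0.06) of the same list hardly moved. The paper reports Spic and Cx3cr1, which stand in these lists, among the genes that rise in DC without Runx3. The part of other cells in the results that follow was not tested.

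After loss of Runx3, most of the synthesis genes showed no change that passed the test. Srebf2, the master regulator of sterol synthesis, and Fasn, the fatty acid synthase, fell to 72.8% and 72.2% of WT, and no member rose. Thus 2 of 32 members passed the adjusted threshold of 0.05 (limma, Benjamini-Hochberg over all probe sets), both lower. Among all 19149 probe sets tested, 298 passed (1.56%), of which 164 were higher (0.856%) and 134 lower (0.700%). An unadjusted p of at most 0.05 was reached by 5 of 32 members (15.6%) and by 3042 probe sets in all (15.9%), so the members' share was near that of the background. That background also holds probe sets without a single gene symbol, whereas each member is 1 annotated probe set per gene. No member reached the methods' thresholds of an unadjusted p of 0.05 with a change of 1.5-fold, which 757 probe sets (3.95%) did. Both calls rest on all 6 arrays together, since leaving out any 1 array ended both, as did the litter as a block (adjusted p = 0.11 for Srebf2 and 0.10 for Fasn). With that block no probe set passed, Runx3 itself included (limma, adjusted p = 0.061). In these sorted cells, fewer cells of a type and less RNA per cell cannot be told apart.

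The 5 regulators were led by Srebf2. The 150 bases before its start (RefSeq, build GRCm38.p6, plus strand, chr15:82147119-82147268) are shown because Srebf2 is 1 of the 2 members that fell. Capitals mark the CCAAT box on either strand, a sequence bound by NF-Y, which acts beside SREBP at many sterol genes.
Srebf2: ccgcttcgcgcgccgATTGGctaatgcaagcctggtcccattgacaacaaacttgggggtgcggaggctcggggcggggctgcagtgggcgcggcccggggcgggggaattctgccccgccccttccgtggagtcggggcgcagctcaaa
Its log2 values were 10.87, 10.78 and 10.85 in WT and 10.37, 10.43 and 10.34 in Runx3-/- DC. Every Runx3-/- array lay below every WT array, and the littermates differed by -0.51, -0.35 and -0.51. The change was -0.46 (SE 0.07), a level 1.37-fold lower (limma, adjusted p = 0.037).

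Scap, the escort of the SREBP proteins, had values of 10.09, 10.07 and 9.89 in WT and of 9.66, 9.77 and 9.65 in Runx3-/- DC. Its groups did not overlap either, but the change of -0.32 (SE 0.09) did not pass (adjusted p = 0.15). Insig1, the retention protein that is itself an SREBP target, had values of 9.41, 9.32 and 9.67 against 9.22, 9.31 and 9.53. Its groups overlapped, litter 3 was highest in both genotypes, and the change was -0.11 (SE 0.13, adjusted p = 0.72). Its relative Insig2 measured 9.11, 8.97 and 9.09 in WT and 9.09, 9.18 and 9.08 in Runx3-/- DC, a change of 0.06 (SE 0.07, adjusted p = 0.75). Srebf1, the regulator that favours fatty acid genes, measured 8.28, 8.43 and 8.20 against 8.24, 8.33 and 8.13. These overlapping groups gave a change of -0.07 (SE 0.09, adjusted p = 0.78) with a 95% interval of -0.29 to 0.16, so that a fall as large as that of Srebf2 lay outside the interval of Srebf1. Over the regulators the median change was -0.11, against -0.04 over all probe sets tested, and 4 of 5 were lower in each of the 3 litters, which 27.5% of all probe sets were.

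**Figure D1:**
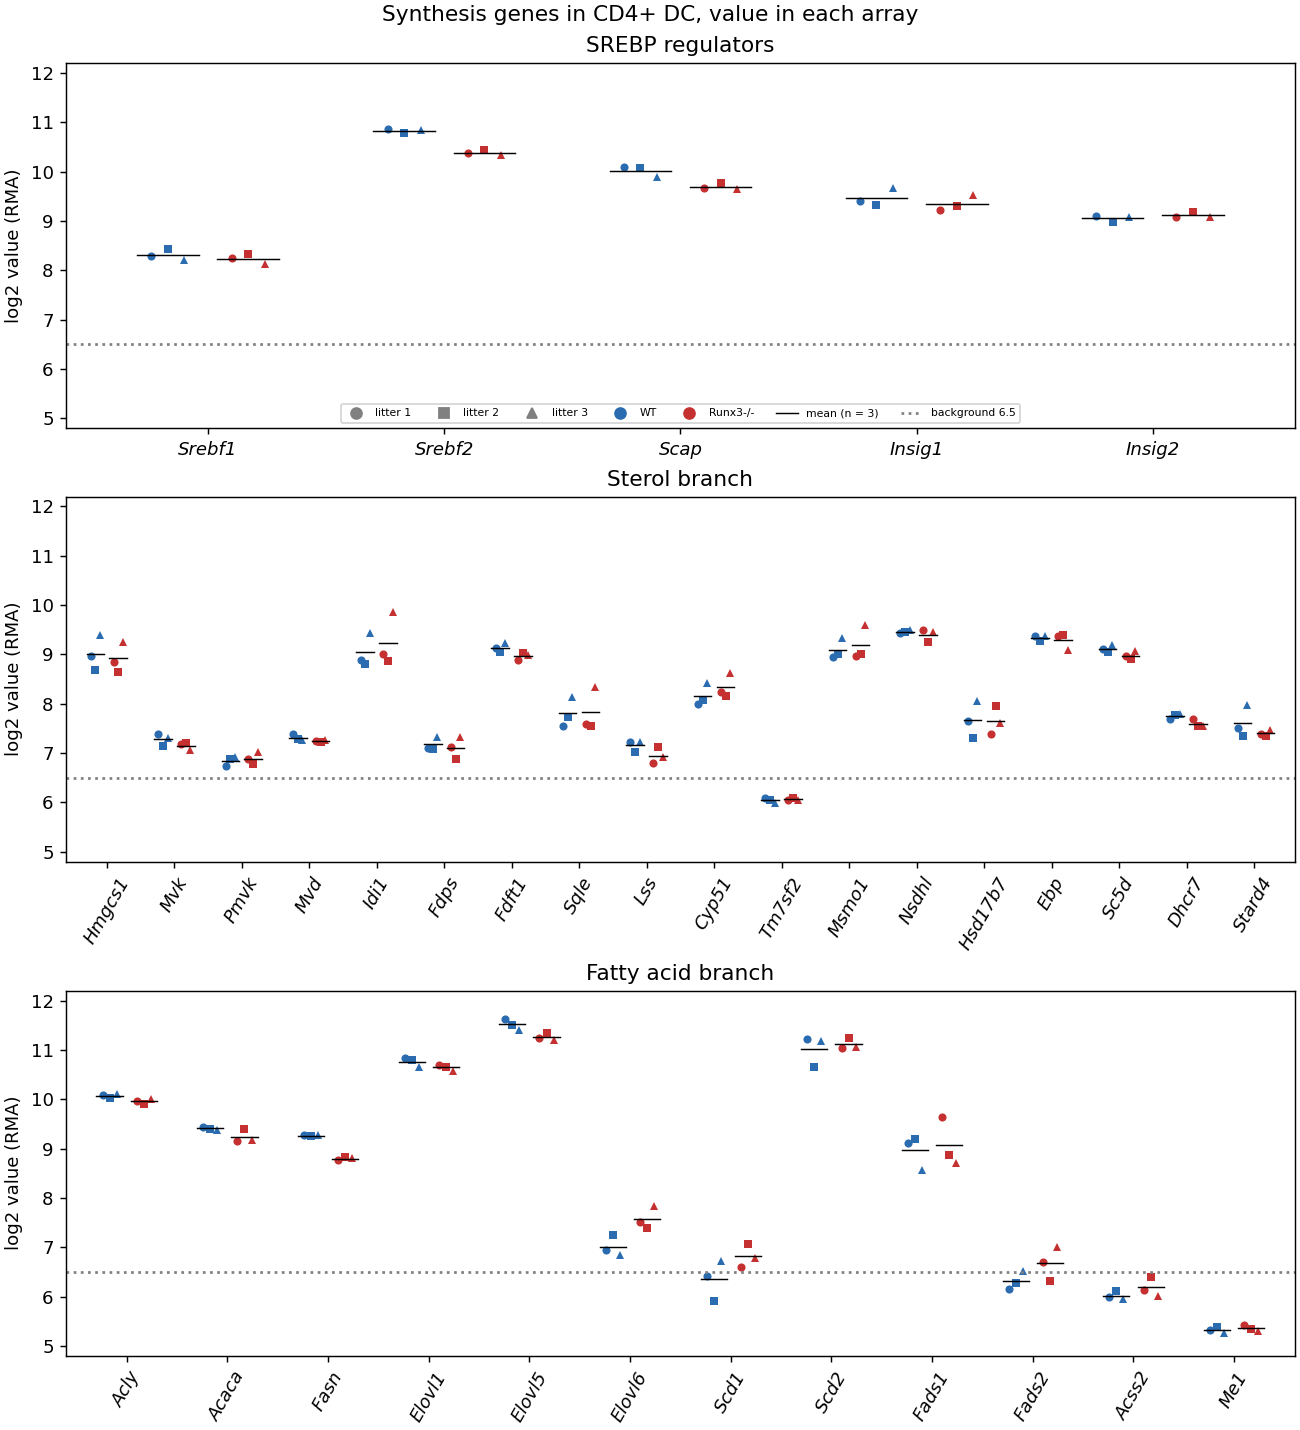
Log2 value (RMA, vertical axis) of 35 synthesis genes in each of 6 arrays, with WT in blue, Runx3-/- in red, the litter as the symbol, the mean of 3 arrays as a line and the background of 6.5 dotted. The groups of Srebf2 and Fasn are apart and narrow, with SDs of 0.01 to 0.05, whereas Idi1, Sqle, Hmgcs1, Cyp51 and Msmo1 are highest in litter 3 of both genotypes.

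In the sterol branch no gene passed. The 17 measured genes ranged in change from -0.21 (Lss and Stard4) to 0.19 (Idi1), with a median of -0.06, and 12 were negative and 5 positive. The sign of Hsd17b7 turned under median centring (0.01) and quantile normalization (0.03). Of all probe sets tested, 59.3% were negative. An unadjusted p of at most 0.05 was likewise reached by 0 of 17 sterol genes, against 15.9% of all probe sets, and the lowest adjusted p of the branch was 0.38.

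The 6 measured genes of the mevalonate and isoprenoid steps had changes between -0.13 and 0.19. Hmgcs1, which makes HMG-CoA, had values of 8.97, 8.69 and 9.39 in WT and of 8.85, 8.65 and 9.25 in Runx3-/- DC. The littermates lay within 0.14 of each other while the litters were much further apart, and the change was -0.10 (SE 0.22, adjusted p = 0.87). Mvk, Pmvk and Mvd, which phosphorylate and decarboxylate mevalonate, had changes of -0.13, 0.04 and -0.06 with SEs of 0.09, 0.09 and 0.07. Idi1, the isomerase that yields the reactive isoprenoid unit, measured 8.89, 8.80 and 9.44 in WT and 9.0, 8.86 and 9.85 in Runx3-/- DC. The groups overlapped, and the change of 0.19 had an SE of 0.30 (adjusted p = 0.81). Fdps, which joins the units to farnesyl diphosphate, measured 7.11, 7.09 and 7.33 against 7.12, 6.88 and 7.33, a change of -0.07 (SE 0.14, adjusted p = 0.86).

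Of the 3 genes from farnesyl diphosphate to lanosterol, Fdft1, the squalene synthase, had values of 9.13, 9.04 and 9.24 in WT and of 8.88, 9.03 and 8.98 in Runx3-/- DC. It was the sterol gene whose groups did not overlap, by a margin of the second decimal in litter 2, and its change was -0.17 (SE 0.08, adjusted p = 0.38). Sqle, the squalene epoxidase, measured 7.55, 7.73 and 8.14 against 7.58, 7.55 and 8.34. Its groups covered each other, with a change of 0.02 (SE 0.26, adjusted p = 0.98). Lss, which closes the rings to lanosterol, measured 7.23, 7.02 and 7.22 against 6.79, 7.13 and 6.92. It was lower in litters 1 and 3 and higher in litter 2, and the change was -0.21 (SE 0.11, adjusted p = 0.43).

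From lanosterol to cholesterol 7 genes were measured, with changes between -0.16 and 0.17. Dhcr7, which acts at the last reductions of the route, had values of 7.70, 7.77 and 7.80 in WT and of 7.70, 7.54 and 7.54 in Runx3-/- DC. The groups met at litter 1, and the change was -0.16 (SE 0.08, adjusted p = 0.38). Sc5d, a sterol desaturase, measured 9.10, 9.05 and 9.19 against 8.97, 8.90 and 9.06. It was lower by 0.13 to 0.14 in every litter, though the groups overlapped, and its change was -0.14 (SE 0.08, adjusted p = 0.45).
Nsdhl, which takes part in removing the methyl groups of lanosterol, measured 9.44, 9.45 and 9.50 against 9.49, 9.25 and 9.46, a change of -0.06 (SE 0.09, adjusted p = 0.78). Ebp, the sterol isomerase, measured 9.38, 9.27 and 9.37 against 9.38, 9.39 and 9.09, a change of -0.06 (SE 0.10, adjusted p = 0.84). Both genes overlapped between the groups. Cyp51 and Msmo1, the demethylase and the methyl oxidase of the route, had changes of 0.17 (SE 0.17) and 0.10 (SE 0.20). Hsd17b7, a ketoreductase, went in opposite directions between litters, by -0.28, 0.65 and -0.45, and averaged -0.03 (SE 0.23). Stard4, a carrier that moves cholesterol between membranes, had a change of -0.21 (SE 0.16, adjusted p = 0.59).

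The 10 measured genes of the fatty acid branch spread more widely, from -0.47 (Fasn) to 0.57 (Elovl6), around a median of -0.005. The median size of the change was 0.21 against 0.10 in the sterol branch and 0.12 over all probe sets tested. The larger changes behind the 0.21 include Scd1 (0.46) and Fads2 (0.36), which lay close to background. Fasn, which assembles the chain, carried 3 CCAAT boxes in the 150 bases before its start, in capitals (RefSeq, GRCm38.p6, minus strand, chr11:120824548-120824697). The sequence is shown because Fasn is the other member that fell, and the last of its matches lie on opposite strands and share letters.
Fasn: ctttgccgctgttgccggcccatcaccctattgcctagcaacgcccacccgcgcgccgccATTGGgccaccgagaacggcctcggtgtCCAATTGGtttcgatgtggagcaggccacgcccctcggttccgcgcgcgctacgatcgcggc
Fasn had values of 9.27, 9.25 and 9.27 in WT and of 8.76, 8.82 and 8.80 in Runx3-/- DC. The arrays of each genotype agreed closely and the groups were far apart, with littermate differences of -0.50, -0.43 and -0.48. The change was -0.47 (SE 0.06), a level 1.39-fold lower (limma, adjusted p = 0.029). The genes for the 2 steps before it moved less. Acly, which supplies acetyl-CoA from citrate, did not overlap between the groups, with 10.02 to 10.10 in WT and 9.90 to 10.01 in Runx3-/- DC, and had a change of -0.11 (SE 0.07, adjusted p = 0.49). Acaca, the acetyl-CoA carboxylase, measured 9.44, 9.40 and 9.38 against 9.16, 9.40 and 9.17, so that the pair of litter 2 was alike, and had a change of -0.16 (SE 0.09, adjusted p = 0.43).

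Among the elongases, Elovl5, which lengthens polyunsaturated chains, had values of 11.63, 11.51 and 11.41 in WT and of 11.25, 11.35 and 11.20 in Runx3-/- DC. Its groups did not overlap, and the change of -0.25 (SE 0.09) did not pass (adjusted p = 0.24). Elovl6, which lengthens saturated chains of the length that Fasn releases, measured 6.95, 7.24 and 6.84 against 7.51, 7.38 and 7.83. It was the member whose Runx3-/- values all lay above WT, by 0.56, 0.14 and 1.00 in the litters, and its change of 0.57 (SE 0.16) did not pass (adjusted p = 0.16). Elovl1, which makes very long chains, had a change of -0.12 (SE 0.08, adjusted p = 0.50).
Each of the 4 desaturases had a positive change and none passed. Scd1, which puts the first double bond into saturated chains, had values of 6.41, 5.91 and 6.73 in WT and of 6.60, 7.06 and 6.79 in Runx3-/- DC. Only 1 of its WT arrays was above background and the groups overlapped, with a change of 0.46 (SE 0.23, adjusted p = 0.39) of which litter 2 alone gave 1.14. Its relative Scd2 measured 11.22, 10.65 and 11.17 against 11.04, 11.24 and 11.06. WT 2 was the low array here too, and the change was 0.10 (SE 0.17, adjusted p = 0.82). Fads1 and Fads2, the desaturases of polyunsaturated chains, had changes of 0.11 (SE 0.28) and 0.36 (SE 0.19), the latter with 1 WT and 2 Runx3-/- arrays above background. The positive sign of Scd2 turned without WT 2 (-0.08), and that of Fads1 without Runx3-/- 1 (-0.17) or WT 3 (-0.08).

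**Figure D2:**
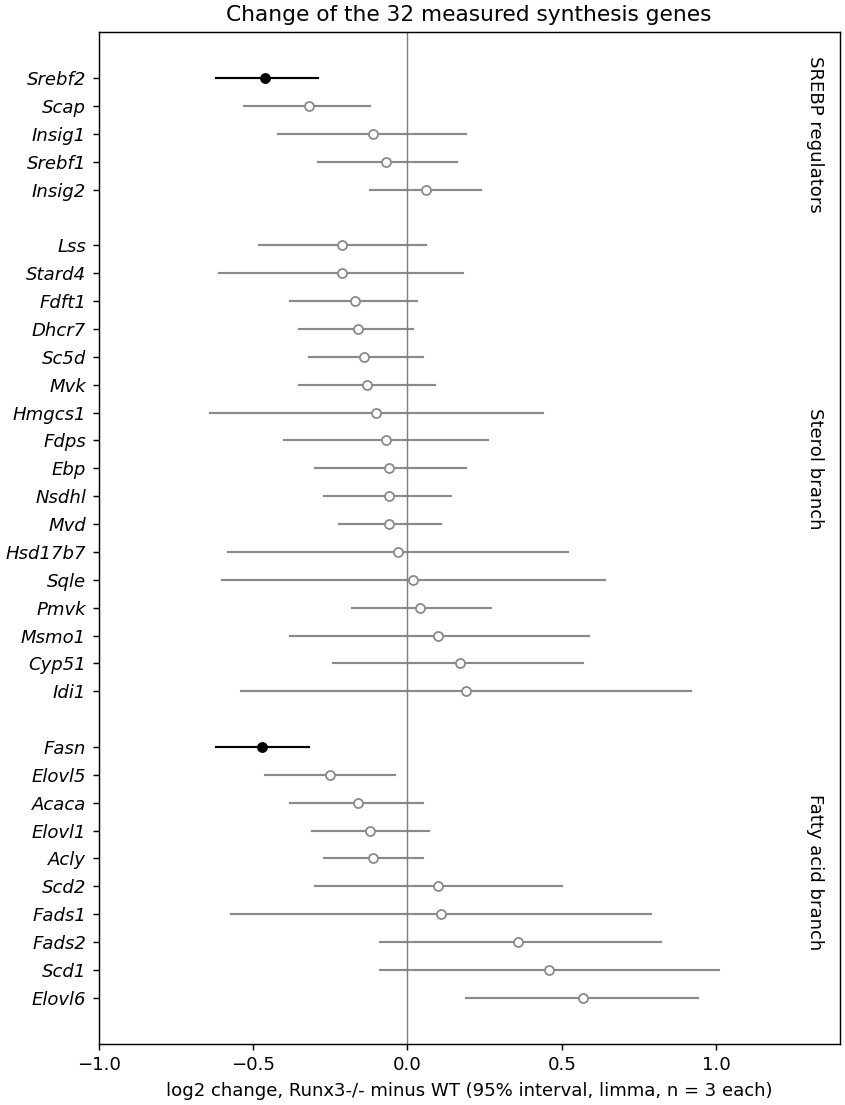
Log2 change of 32 measured genes, Runx3-/- minus WT, with the 95% interval of limma (n = 3 in each group), ordered by size within regulators, sterol branch and fatty acid branch. Filled circles mark Srebf2 and Fasn, which passed the adjusted threshold, and the intervals of 27 genes span 0.

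Across the members, the groups did not overlap for 6 lower genes (Srebf2, Scap, Fdft1, Acly, Fasn and Elovl5) and 1 higher gene (Elovl6). Of all probe sets tested, 22.4% did not overlap, 14.9% lower and 7.48% higher in Runx3-/- DC. The members' share of 18.8% lower was thus near that of the background, which also holds probe sets without a single gene symbol. The median change over the members was -0.07. A 95% interval that stayed within 1.5-fold in both directions was found for 21 of 32 members and for 72.9% of all probe sets. It was found for 12 of 17 sterol genes, so that a change of 1.5-fold or more lay outside the interval for these. For Hmgcs1, Idi1, Sqle, Msmo1 and Stard4 the intervals reached past it. With the litter as a block their SEs fell, from 0.22 to 0.06 for Hmgcs1 and from 0.30 to 0.10 for Idi1, and all 5 intervals then stayed within 1.5-fold. In that fit 16 of 17 sterol genes, all but Hsd17b7, 24 of 32 members and 75.3% of all probe sets had such an interval.

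**Figure D3:**
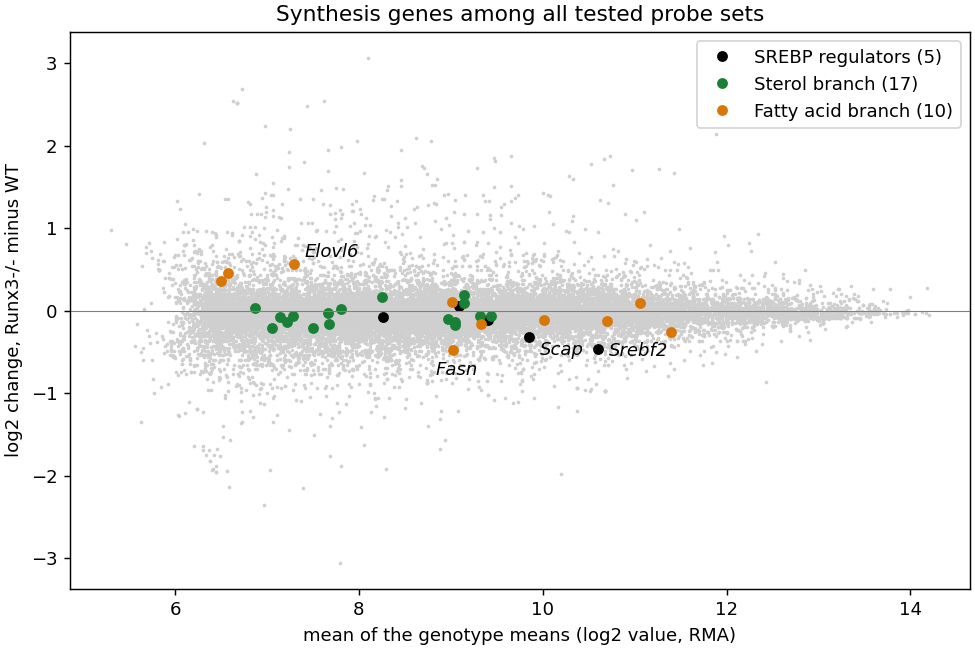
Log2 change (Runx3-/- minus WT) against the mean log2 value for 19149 tested probe sets in grey and the 32 measured members in colour by branch. The sterol genes lie between -0.21 and 0.19, within the body of the grey points, and Srebf2, Fasn, Scap and Elovl6 lie towards its edges.

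Sterol genes also varied between litters, a pattern that was noticed after the values had been seen. In 11 of 17, litter 3 departed from the other litters by more than the genotypes differed, as it did in 47.7% of all probe sets tested. In 9 of 17 sterol genes (52.9%) litter 3 gave the highest value in both genotypes, against 18.0% of all probe sets tested. Across the branch the median difference of litter 3 from the other two was 0.16, against 0.00 over all probe sets. The difference was 0.59 in WT and 0.92 in Runx3-/- DC for Idi1, 0.56 and 0.51 for Hmgcs1, and 0.50 and 0.78 for Sqle. It was 0.37 and 0.61 for Msmo1 and 0.38 and 0.43 for Cyp51. These are enzymes of early, middle and late steps alike, but other genes of the same steps went the other way. In Runx3-/- DC the difference was negative for Mvk (-0.12), Lss (-0.03), Hsd17b7 (-0.06), Ebp (-0.3) and Dhcr7 (-0.08). In WT it was negative for Mvd (-0.08). Msmo1 had values of 8.94, 9.0 and 9.34 in WT and of 8.97, 9.01 and 9.60 in Runx3-/- DC, and Cyp51 of 8.0, 8.08 and 8.42 and of 8.23, 8.15 and 8.62. Each genotype showed litters 1 and 2 close together and litter 3 above them.
With the litter as a term beside genotype, 6 members had an unadjusted p of at most 0.05, namely Hmgcs1 (0.0027), Idi1 (0.0044), Sqle (0.0090), Cyp51 (0.013), Msmo1 (0.013) and Insig1 (0.048), as did 9.96% of all probe sets. After adjustment by limma no member and no other probe set passed (0 of 19149, 0%). Litter 3 was highest in both genotypes for 1 of 5 regulators and 2 of 10 fatty acid genes, and the difference between the branches was not tested. Other genes also moved between the litters. The mean of 4 plasmacytoid DC markers was 9.69 in Runx3-/- 3 and 7.90 to 8.47 in the other 5 arrays, with 7.96 in WT 3. The mean of 21 cell division genes was 10.12 in WT 3 and 9.66 to 9.72 in the other WT arrays, and 10.24, 9.76 and 10.02 in the Runx3-/- arrays. The part of either in the litter differences was not tested.

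**Figure D4:**
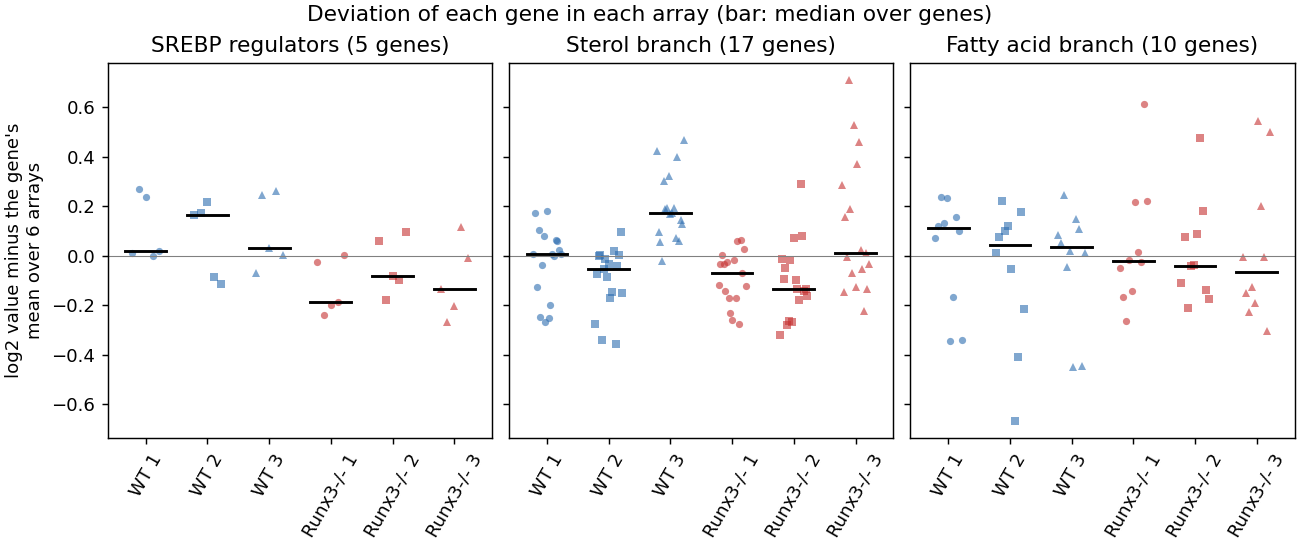
Deviation of each gene in each array from its own mean over 6 arrays (log2, vertical axis), with 1 point per gene and a bar at the median, for 5 regulators, 17 sterol and 10 fatty acid genes. The sterol medians are 0.17 in WT 3 and 0.01 in Runx3-/- 3 against -0.14 to 0.01 in the other arrays, and the regulator medians are 0.02 to 0.16 in WT and -0.19 to -0.08 in Runx3-/- DC.

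The promoters of the sterol genes had short sequences in common, which many other genes hold too. The 150 bases before the start are shown for Hmgcs1 (plus strand, chr13:119690201-119690350), Idi1 (plus strand, chr13:8885456-8885605) and Msmo1 (minus strand, chr8:64733579-64733728), as enzymes of different steps that were highest in litter 3 (RefSeq, GRCm38.p6). Capitals mark the CCAAT box on either strand and, in Hmgcs1, the sterol regulatory element, to which SREBP binds.
Hmgcs1: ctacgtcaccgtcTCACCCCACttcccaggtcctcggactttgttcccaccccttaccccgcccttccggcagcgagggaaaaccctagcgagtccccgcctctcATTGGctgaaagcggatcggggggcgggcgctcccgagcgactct
Idi1: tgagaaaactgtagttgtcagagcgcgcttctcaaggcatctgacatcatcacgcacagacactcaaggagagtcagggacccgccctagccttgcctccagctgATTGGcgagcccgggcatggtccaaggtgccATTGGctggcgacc
Msmo1: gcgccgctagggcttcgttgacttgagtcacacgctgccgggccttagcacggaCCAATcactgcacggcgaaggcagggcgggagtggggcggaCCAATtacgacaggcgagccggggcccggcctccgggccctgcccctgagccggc
RefSeq windows from 250 bases before to 50 after a start were found for 25 of 32 measured members. CCAAT was present on either strand in 13 of 13 sterol genes with a window (100%), in 4 of 5 regulators (80%) and in 4 of 7 fatty acid genes (57.1%), against 41.1% of 27025 genes. The GC box GGGCGG was present in 12 of the 13 sterol genes (92.3%), against 38.2% of all genes. Hmgcs1 was the single member with a match to the sterol regulatory element TCACNCCAC, whose first base lay at -137 from the start, as did 1.44% of all genes. The E-box CACGTG, a further sequence that SREBP can bind, was found in 6 of 25 members (24%), against 8.09% of all genes. The Runx motif TGTGGT was found in 4 of 25 members (16%), Lss, Acly, Acaca and Elovl5, against 18.9% of all genes, and in neither Srebf2 nor Fasn. The last letters of a sterol regulatory element can be shared with a Runx motif on the other strand, but Hmgcs1 held no Runx motif in its window. These matches describe letters in a window and do not show binding or its absence. The paper mapped Runx3 binding in CD4+ DC by ChIP-seq, with many bound regions farther from a start than these windows reach. Those data were not used here. The 27025 genes of the comparison were not limited to those measured in these cells, and the differences in share were not tested.

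Around the synthesis routes, 3 further genes rose past the adjusted threshold after loss of Runx3, as did 0.856% of all probe sets tested. Of 37 further sterol genes, which handle uptake, export, storage, protein prenylation or the turnover of regulators, 26 were measured, with a median change of -0.10, and 2 rose and none fell. Nr1h3, which encodes the oxysterol receptor LXR alpha, had values of 7.88, 8.08 and 8.13 in WT and of 9.87, 9.41 and 9.36 in Runx3-/- DC, a change of 1.52 (SE 0.15, adjusted p = 0.017). Abca1, the exporter that LXR turns on, measured 6.76, 6.76 and 6.53 against 8.29, 8.24 and 7.59, a change of 1.36 (SE 0.20, adjusted p = 0.037). In both, every Runx3-/- array lay far above every WT array. Abcg1, a further exporter of the list, had a change of 0.22 (SE 0.13, limma, adjusted p = 0.47). That of Mylip, also of the list, was -0.10 (SE 0.14, adjusted p = 0.79). Whether LXR acted on Abca1 here was not tested. Nr1h3 also belongs to the red pulp macrophage markers, whose mean moved with genotype as given above. Npc2, which carries cholesterol out of lysosomes, had a change of 0.54 (SE 0.12, adjusted p = 0.10).
Of 44 further fatty acid genes 32 were measured, with a median change of 0.00, and 1 rose and none fell. This was Idh1, the cytosolic isocitrate dehydrogenase that supplies NADPH, with values of 9.09, 8.93 and 9.13 in WT and of 10.27, 9.81 and 9.95 in Runx3-/- DC. Its groups were apart, with a change of 0.96 (SE 0.13, adjusted p = 0.032). Dgat2, which completes triglycerides, had a change of 0.94 (SE 0.22, adjusted p = 0.12). Mcat, of mitochondrial fatty acid synthesis, had a change of -0.34 (SE 0.09, adjusted p = 0.13). With the litter as a block none of these genes passed, at adjusted p-values of 0.089 for Nr1h3, 0.076 for Abca1 and 0.081 for Idh1. In that fit Runx3 itself did not pass either (limma, adjusted p = 0.061).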

How the data were processed

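Total RNA of sorted splenic CD4+ DC of 3 WT and 3 Runx3-/- littermate pairs was hybridised to Affymetrix arrays, 1 mouse to an array. The authors normalized the arrays by RMA (Robust Multichip Average, with GC correction) in Partek and deposited log2 values per probe set. The submitters' processing notes name the mm9 build, and software versions were not found. RMA brings the arrays close to a common distribution, which would hide a shift of most genes at once, and changes of dim probe sets come out too small. The medians of the deposited arrays still ran from 6.57 to 6.65. The median change over all probe sets tested was -0.04 as deposited, -0.01 with quantile normalization and 0.01 with median centring. The methods name an exon array and the probe set annotation a gene-level array, so each value was read as the summary of a gene.

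The 35399 log2 values per array were used as deposited. Probe sets with at least 6.5 in at least 1 array were tested (19149) with limma 3.58.1 in R 4.3.3 (lmFit and eBayes, two-sided, genotype as the only term), with Benjamini-Hochberg adjustment over all of them and a threshold of 0.05. The fit was tested on simulated data with planted changes of 2 on the log2 scale, up or down. These were far larger than the members' changes, so the simulation does not show how well changes of their size are found. A gene was represented by the probe set annotated with its symbol alone that had the highest mean. The arrays held 11989 probe sets without a symbol and 1621 with several, and shares over all probe sets cover those of them that were tested. Idi1, Fdft1 and Acaca had a further measured probe set, with changes of 0.13, -0.22 and -0.09. Symbols of 35 members matched the RefSeq gene table. Members, gene lists and tests were chosen with earlier results of these data known. Given in full were members past the threshold, then in each branch the 4 with the smallest p and the 2 with the highest mean. From the other lists, those past the threshold were given in full. Of the 3 with the smallest p in each of these lists, Npc2, Dgat2 and Mcat did not pass and are given without array values. Abcg1 and Mylip are given outside this rule. The values of each array are also given for Hmgcs1, Idi1, Sqle, Cyp51, Msmo1, Fdps and Acaca, which were chosen after they had been seen, as were the litter term and the count of genes highest in litter 3. Replicate numbers pair the mice because the labels give the litter. Deviations from the group means correlated at 0.16, 0.10 and 0.25 within litters and at -0.23 to 0.10 between litters, across probe sets. Alternatives left out each array in turn, blocked by litter, or changed the filter, normalization, variance model, test or choice of probe set. Precision is limited by the 3 arrays in each group. Promoter motifs were searched on both strands with Python 3.11.15.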

Additional observations from a re-analysis of the deposited data

How the results depend on the processing

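Srebf2 and Fasn kept their direction under all 15 alternatives, with changes of -0.49 to -0.42 and of -0.48 to -0.43, and adjusted p-values of 0.019 to 0.19 and of 0.014 to 0.16. Both passed under the filters, normalizations, variance models and choice of probe set that were tried, and the methods' analysis of variance called 1 member, Fasn, with 6 probe sets in all. With the litter as a replicate block, 0 members and 0 of 19149 probe sets passed, although before adjustment 6 members and 3430 probe sets were at or under 0.05, where the fit without the block had 5 and 3042. Without each array in turn, 0 members passed and 0 (without WT 1) to 205 (without Runx3-/- 2) probe sets did. The remaining counts were 1 without Runx3-/- 3, 40 without Runx3-/- 1, 75 without WT 3 and 137 without WT 2, with fewer samples in each of these fits. Array weights raised the count to 656. The sterol median stayed between -0.12 and -0.02, the regulator median moved between -0.20 (without Runx3-/- 3) and -0.07 when 1 array was left out, and the fatty acid median between -0.12 (without Runx3-/- 1) and 0.05 (without WT 1), and to 0.04 with median centring. For the median over all members (-0.11 to -0.03) and for the sterol genes highest in litter 3 (8 of 17 with quantile normalization or median centring), the alternatives were chosen after the data had been seen. The intervals with the litter as a block were also added then. None of these medians was tested. Of 32 members, 11 changed sign when an array was left out, none with a change past 0.19. Their ranges were -0.11 to 0.04 for Ebp, -0.17 to 0.29 for Fads1, -0.18 to 0.05 for Fdps, -0.27 to 0.08 for Hmgcs1, -0.21 to 0.16 for Hsd17b7, -0.12 to 0.39 for Idi1, -0.10 to 0.22 for Msmo1, -0.11 to 0.01 for Nsdhl, -0.02 to 0.10 for Pmvk, -0.08 to 0.20 for Scd2 and -0.24 to 0.19 for Sqle. Hsd17b7 also changed sign with median centring (0.01) and quantile normalization (0.03). The cause of these changes was not tested. Tm7sf2, Acss2 and Me1 were below background, and Scd1 and Fads2 close to it, which limits what their values can show.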
